A study of Mus musculus with 18 samples.

Results

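The Gbp and Mx interferon-induced GTPases were followed in cultured mouse fat cells transduced to overexpress or knock down the transcription factor IRF3. Members were the gene models that lie wholly inside the Gbp window of mouse chromosome 3 (chr3:142150000-142305000, mm9) or inside the pair of Mx windows of chromosome 16 (chr16:97665000-97685000 and chr16:97755000-97785000, mm9). At least 20 counts over the 18 libraries were required. The rule found 7 of the 27473 gene models in the count table, of which 5 lie in the Gbp window and 2 in the Mx windows. No gene model of the windows fell below 20 counts, and all 7 passed the low-count filter of each fit.

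All libraries came from 3T3-L1 adipocytes, an established mouse line differentiated into fat cells, at passage 15. Lentivirus was used on mature adipocytes, for 6 days, in every arm. Irf3_2D cells carried the vector labelled 2D, which the labels describe as overexpression of Irf3 without saying what 2D stands for, and were set against cells with EGFP, a fluorescent protein. The knockdown cells carried shIrf3 and were set against shLuc cells, in each case with LPS, lipopolysaccharide of the bacterial outer membrane (shIrf3_LPS and shLuc_LPS), or without it (shIrf3 and shLuc). LPS followed the 6 days of transduction and lasted another 6 days. No label says that the cells without LPS were kept as long, so an effect of LPS cannot be told apart from one of time in culture. Each of the 6 groups had 3 libraries, and the labels do not call them separate cultures: each p-value weighs a difference against how far these libraries lie apart, and that scatter may be technical.

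Guanylate-binding proteins (Gbp) are large GTPases that are among the genes most strongly induced by interferon, above all interferon-gamma. They assemble on the vacuoles and membranes of microbes inside the cell and help to set off inflammasomes. Mx proteins are dynamin-like GTPases that block the replication of viruses, and their genes are induced mainly by type I and type III interferons. IRF3 is activated by receptors for viral nucleic acid and by the LPS receptor TLR4, and it switches on interferon-beta and some interferon-stimulated genes directly. Interferon-stimulated genes of these families often carry an interferon-stimulated response element (ISRE) near their start, the site read by IRF proteins and by the complex that type I interferon activates.

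RefSeq lists 5 Gbp genes on chromosome 3 (Gbp5, Gbp7, Gbp3, Gbp2b and Gbp2) and 2 Mx genes on chromosome 16 (Mx1 and Mx2) of the mouse genome GRCm38.p6. It gives Mx1 and Mx2 as transcribed pseudogenes in that reference strain. None of the 27473 identifiers of the count table (0 matched) occurs in the name tables used here, so each gene model is called by its identifier and window. No gene model is tied to a single RefSeq gene or to that gene's role. Family genes on other chromosomes were not looked for. The promoter sequences below belong to the 5 Gbp genes listed, and none is assigned to a gene model. They are shown because each holds the ISRE core, 2 copies of GAAA with any 2 bases between them, here read on the other strand as 2 copies of TTTC, printed in capitals with the bases between. Matched by symbol, 5 of the 7 genes had a promoter in the table, which spans 250 bases before to 50 bases after each start. Mx1 and Mx2 were not matched. The stretches are 60 bases of the plus strand (RefSeq, GRCm38.p6), at chr3:142496744-142496803 for Gbp5, chr3:142530258-142530317 for Gbp7, chr3:142559974-142560033 for Gbp3, chr3:142594685-142594744 for Gbp2b and chr3:142620579-142620638 for Gbp2.
Gbp5: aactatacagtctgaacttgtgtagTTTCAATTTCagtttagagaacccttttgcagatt
Gbp7: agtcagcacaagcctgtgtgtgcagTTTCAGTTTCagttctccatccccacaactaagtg
Gbp3: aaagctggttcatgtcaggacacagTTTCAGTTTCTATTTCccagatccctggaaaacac
Gbp2b: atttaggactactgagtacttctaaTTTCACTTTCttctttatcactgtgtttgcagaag
Gbp2: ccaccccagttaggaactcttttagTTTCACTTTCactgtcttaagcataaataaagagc

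The ISRE core, searched on both strands, was present in 5 of the 6 promoters listed for the 5 Gbp genes, since Gbp3 has a second promoter without it. Over all 32851 mouse promoters of the table, 1131 held it, or 3.44%. The 10 capital letters start at position -165 relative to the gene start in Gbp5, at -53 in Gbp7, at -137 in Gbp2b and at -59 in Gbp2. In Gbp3, a pair of overlapping matches has its first letter at -45. A match is a description of letters and shows no binding.

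The unit of the deposited table is raw counts per gene model, with 22143302 to 34368259 counts per library. Levels are given as CPM (counts per 1000000 counts of the library), scaled with TMM factors over all 18 libraries, and as CPM per kb of exon where gene models are compared with each other. The mitochondrial chromosome took 2.2% to 14.2% of a library's counts, and shLuc held both the widest range (2.88% to 14.2%) and the highest library. The smallest chi-square per degree of freedom between replicates was 3.38 over 18 pairs, so no pair of replicates agreed within sampling noise. Markers of cell types and the level of Irf3 itself need gene names and were not analysed here. In such bulk libraries, a change in RNA per cell and a change in the number of cells that express a gene cannot be told apart.

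The 7 gene models differ widely in depth. uc008roy.1 (chr3:142283627-142300972, plus strand, 11 exons, 2455 exon bases) held 79816 counts over the 18 libraries. uc008rov.1 (chr3:142223016-142236176, 13 exons, 2860 exon bases) held 61552, and uc008ros.1 (chr3:142193302-142213047, 11 exons, 5552 exon bases) held 46737. In the Mx windows, uc012ajb.1 (chr16:97757688-97782508, plus strand, 14 exons, 2422 exon bases) held 15909 counts and uc008adg.1 (chr16:97668642-97684513, minus strand, 14 exons, 3231 exon bases) held 3860. The last pair of Gbp models is sparse and entangled. uc008roq.1 (chr3:142159898-142282140, 20 exons, 6384 exon bases, 1428 counts) spans 3 other members, and it shares 2423 exon bases with uc008rox.1 (chr3:142257811-142282140, 11 exons, 2820 exon bases, 144 counts). These are 85.9% of the exon bases of uc008rox.1, so the split of reads between them is uncertain. Gbp genes are close paralogs, and reads that fit several of them could have been placed on any of them.

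**Figure D1:**
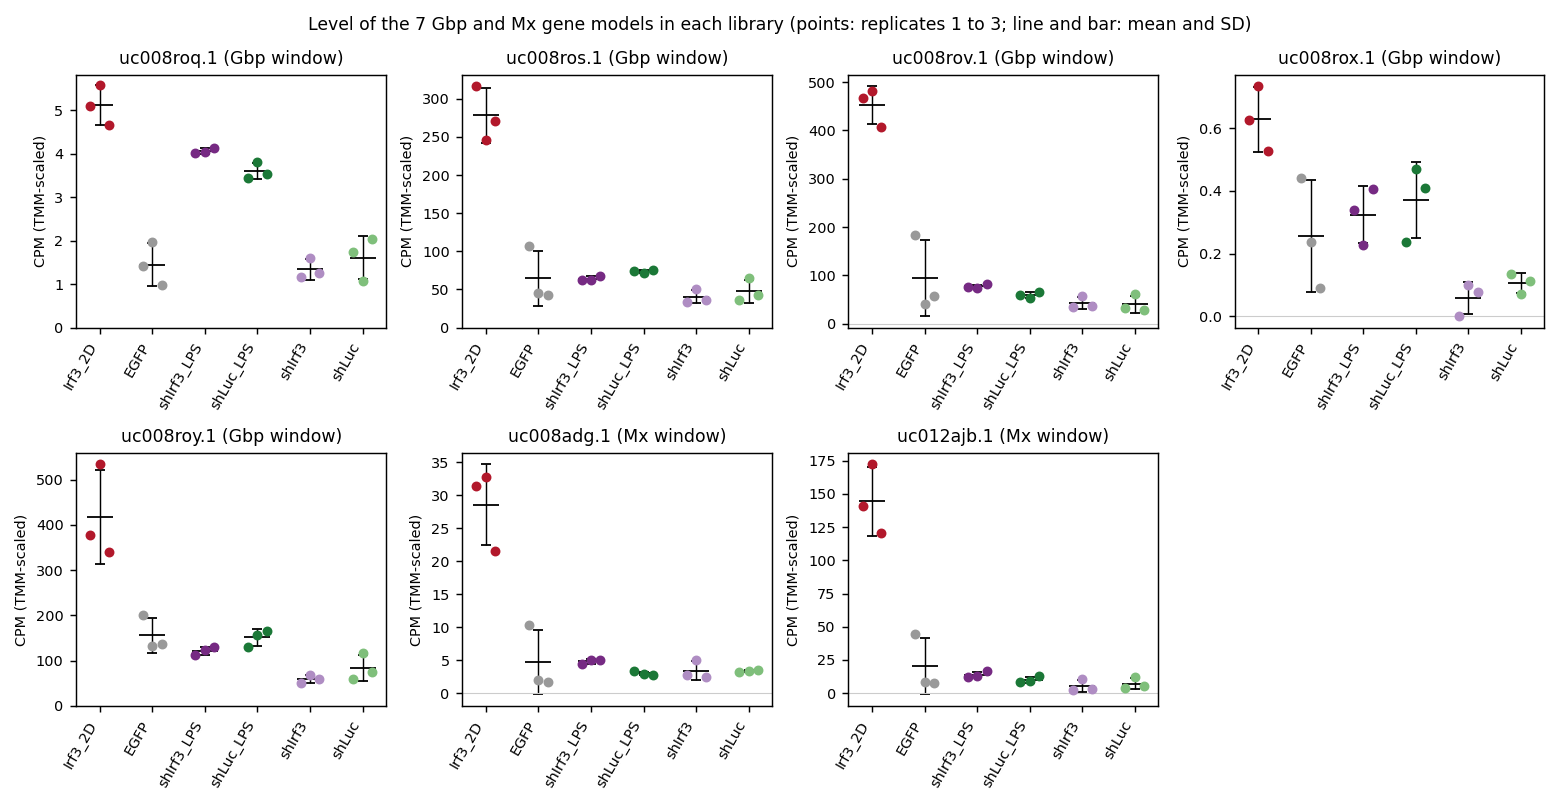
Level of each of the 7 gene models in every library, in CPM on a linear axis, by group, with points for replicates 1 to 3 and a line and bar for mean and SD. In every panel the 3 Irf3_2D libraries lie above all other libraries, and EGFP replicate 1 lies above the other EGFP libraries in 6 of the 7 panels. The share of all gene models with Irf3_2D above all other libraries was not counted.

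In Irf3_2D against EGFP cells, 3 Gbp gene models rose, and neither Mx model passed edgeR's test. In each of the 7 gene models the lowest Irf3_2D library was above the highest EGFP library, whereas 8.35% of the 13931 gene models tested had that pattern. 3 of the 7, all in the Gbp window, rose past the threshold, an adjusted p under 0.05 from edgeR's quasi-likelihood test with Benjamini-Hochberg adjustment over all 13931, and 0.811% of the gene models tested were called higher. None of the 7 was lower in all Irf3_2D libraries, against 8.24% of all gene models. The median log2 fold change of the 7 was 2.10, against 0.02 over all gene models tested. All 7 had an unadjusted p under 0.05 in edgeR's test, and the share of all gene models under it was not counted.

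The most abundant Gbp model per kb, uc008roy.1, had 377, 535 and 340 CPM in the Irf3_2D libraries and 200, 132 and 136 CPM in the EGFP libraries. It averaged 418 ± 103 CPM in Irf3_2D and 156 ± 38.2 CPM in EGFP (SD, n = 3 each). It rose, with a log2 fold change of 1.42 (standard error, SE, 0.22, edgeR adjusted p = 0.0208). All Irf3_2D libraries were high, replicate 2 the highest of all, and EGFP replicate 1 came nearest to them. uc008ros.1 had 317, 246 and 271 CPM in Irf3_2D and 106, 45.2 and 42.4 CPM in EGFP, and it rose (log2 fold change 2.10, SE 0.33, edgeR adjusted p = 0.0213). The sparse uc008roq.1 had 5.10, 5.59 and 4.66 CPM in Irf3_2D and 1.41, 1.96 and 0.972 CPM in EGFP, and it rose (log2 fold change 1.79, SE 0.26, edgeR adjusted p = 0.0196). In both of these the groups stood apart, and uc008roq.1 was the single member in which replicate 1 was not the highest EGFP library.

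The other Gbp models did not pass the test. uc008rov.1 had 468, 482 and 408 CPM in Irf3_2D, against 184, 41.0 and 57.4 CPM in EGFP. Its log2 fold change of 2.26 was larger than that of the called models, with a standard error of 0.50 (edgeR adjusted p = 0.0781). Its Irf3_2D libraries lay close together, whereas EGFP replicate 1 was far above the other EGFP libraries. uc008rox.1 was close to the limit of detection, with 20, 15 and 14 counts in Irf3_2D and 11, 7 and 2 counts in EGFP (log2 fold change 1.25, SE 0.48, edgeR adjusted p = 0.351).

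Both Mx models had the largest fold changes of the 7, and neither passed edgeR's test. DESeq2, limma-voom and an edgeR fit of all 18 libraries each called both Mx models and uc008rov.1 higher, 6 of the 7 members in all, where 1.69%, 1.11% and 3.08% of all gene models were called higher. uc012ajb.1 had 141, 172 and 121 CPM in the Irf3_2D libraries, against 44.5, 8.59 and 7.42 CPM in the EGFP libraries. The log2 fold change was 2.84 (SE 0.66, edgeR adjusted p = 0.106). Of the EGFP libraries, replicates 2 and 3 were low and replicate 1 was several times higher. uc008adg.1, on the opposite strand, had the same order, with 31.4, 32.8 and 21.6 CPM in Irf3_2D and 10.3, 2.03 and 1.77 CPM in EGFP. Its log2 fold change was 2.60 (SE 0.60, edgeR adjusted p = 0.0944).

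EGFP replicate 1 stood apart from the other EGFP libraries in these gene models. Its level was 5.56 times the mean of the other EGFP libraries for uc012ajb.1, 5.43 times for uc008adg.1 and 3.74 times for uc008rov.1. For uc008rox.1 it was 2.72 times, for uc008ros.1 2.43 times, for uc008roy.1 1.49 times and for uc008roq.1 0.961 times that mean. Among all 13931 gene models the median of this ratio was 1.002, and 1.49% (207 gene models) had a ratio of at least 2. Without that library, 6 of the 7 members were called higher, against 1.2% of all gene models. The log2 fold change was then 4.17 for uc012ajb.1, 3.90 for uc008adg.1, 3.20 for uc008rov.1, 2.66 for uc008ros.1, 1.77 for uc008roq.1 and 1.64 for uc008roy.1, while uc008rox.1 (1.84) was still not called. None of the 7 was called without Irf3_2D replicate 1, without EGFP replicate 2 or without EGFP replicate 3, where 0.0283%, 0.00709% and 0% of all gene models were called higher. Without Irf3_2D replicate 2, 2 of the 7 were called, where 3.32% of all gene models were called higher. Leaving out Irf3_2D replicate 3 also gave 2, where 0.289% were called higher. Across these 6 runs, the log2 fold change lay between 1.19 and 1.64 for uc008roy.1, between 1.87 and 2.66 for uc008ros.1 and between 1.58 and 2.08 for uc008roq.1. EGFP replicate 1 had a total of 25021266 counts, which, like its mitochondrial share of 2.63%, lay within the range of the other overexpression-arm libraries, and what sets it apart was not tested.

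**Figure D2:**
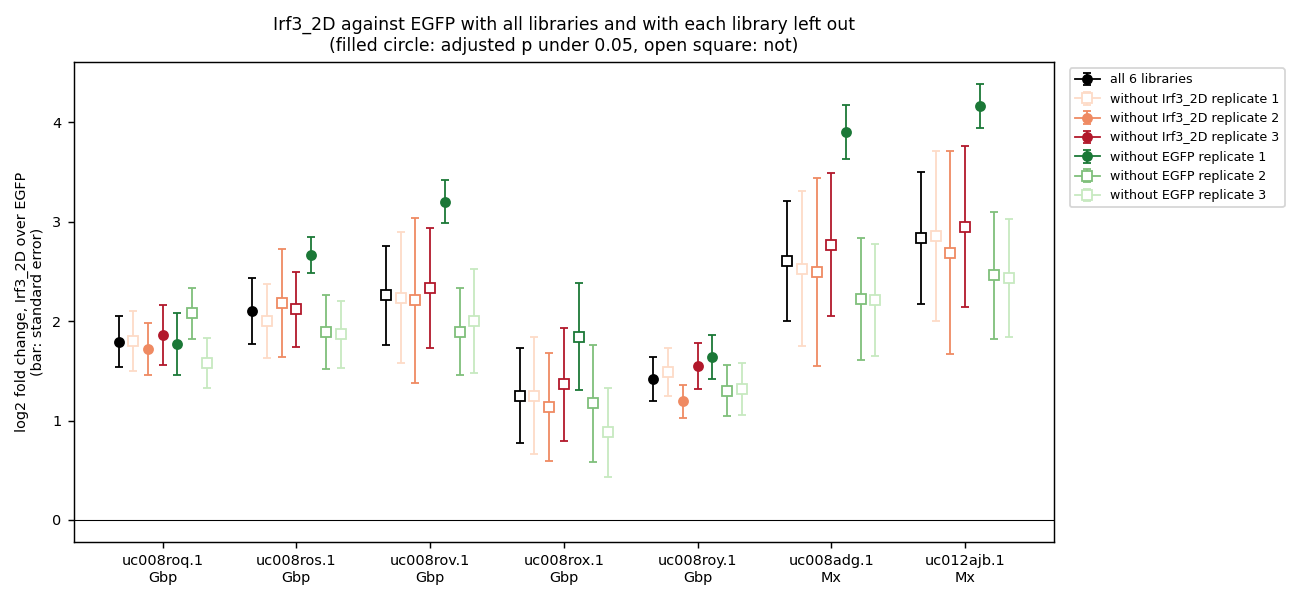
Log2 fold change of Irf3_2D over EGFP for each member with all 6 libraries and with each library left out in turn, with bars for the standard error. Without EGFP replicate 1 the Mx models reach 4.17 and 3.90, and every value in the plot is above 0.

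Knockdown of Irf3 without LPS left no member past the threshold in either direction. None of the 7 (0) was called by edgeR, while 4.65% of the 14970 gene models tested were called higher and 3.91% lower. DESeq2 and limma-voom called 0 as well. Of all gene models, DESeq2 called 5.86% higher and 4.55% lower, and limma-voom 4.82% and 3.52%. In edgeR's test 1 member had an unadjusted p under 0.05, and the share of all gene models under it was not counted. The libraries of shIrf3 and shLuc overlapped in all 7. Of all gene models, 13.4% were higher and 10.2% lower without overlap, so most overlapped as well. The nearest to the threshold was uc008roy.1, with 50.5, 67.4 and 59.0 CPM in shIrf3 and 60.5, 116 and 76.1 CPM in shLuc (log2 fold change -0.52, SE 0.20, edgeR adjusted p = 0.151). It was called lower without shLuc replicate 1, at -0.70, and with a replicate block, at -0.50. The other 6 members had log2 fold changes from -0.76 (uc008rox.1) to 0.08 (uc008rov.1).

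The spread within these groups was wide, and replicate 2 was often the highest library. It was the highest shIrf3 library for 7 of 7 members, against 36.7% of the 14970 gene models. In shLuc it was the highest library for 4 of 7 members, near the 44.1% of all gene models, and the lowest for 2 of 7, uc008roq.1 and uc008rox.1. uc012ajb.1 had 2.32, 11 and 3.25 CPM in shIrf3, against 3.88, 11.9 and 5.75 CPM in shLuc. The replicate 2 value was 3.95 times the mean of the other libraries in shIrf3 and 2.47 times in shLuc. uc008rov.1 was also highest in replicate 2 of both groups, with 34.5, 57.9 and 36.7 CPM in shIrf3 and 32.7, 60.8 and 28.2 CPM in shLuc. uc008ros.1 had 34.1, 50.2 and 36.8 CPM in shIrf3 and 36.2, 64.4 and 42.4 CPM in shLuc. uc008adg.1 had 2.78, 5.04 and 2.53 CPM in shIrf3 and 3.32, 3.33 and 3.54 CPM in shLuc, so that replicate 2 was not its highest shLuc library. The shIrf3 libraries had mitochondrial shares of 6.53%, 7.17% and 6.64%, and the shLuc libraries 14.2%, 2.88% and 5.19%. The part of this difference in the members' values was not tested, and with mitochondrial gene models left out edgeR also called 0 of the 7. That fit called 5.5% of all gene models higher and 3.57% lower.

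Under LPS, the knockdown and control cells differed in 1 called member. uc008adg.1, an Mx-window model, had 4.44, 5.11 and 5.08 CPM in shIrf3_LPS and 3.35, 2.95 and 2.86 CPM in shLuc_LPS. It rose (log2 fold change 0.70, SE 0.20, edgeR adjusted p = 0.0411), where 4.9% of the 14970 gene models tested were called higher and 3.31% lower. The call lies close to the threshold. It was lost without any of the 6 libraries compared and without shLuc replicate 3, with log2 fold changes from 0.65 to 0.79 when a library was left out. It was also lost with library totals in place of TMM factors and in a fit of all 18 libraries.

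The Gbp models split in direction between these groups without passing the test. uc008rov.1 had 75.7, 74.7 and 81.6 CPM in shIrf3_LPS and 60.3, 52.7 and 64.8 CPM in shLuc_LPS (log2 fold change 0.41, edgeR adjusted p = 0.455). uc008roy.1 had 112, 124 and 130 CPM in shIrf3_LPS and 131, 157 and 166 CPM in shLuc_LPS (log2 fold change -0.29, edgeR adjusted p = 0.460). uc008ros.1 had 62.5, 62.0 and 68.0 CPM in shIrf3_LPS and 73.9, 72.1 and 76.1 CPM in shLuc_LPS (log2 fold change -0.18, edgeR adjusted p = 0.655). The libraries did not overlap in any of these 3, uc008rov.1 being above and the other pair below. Counting all members, the shIrf3_LPS libraries were all higher in 3 and all lower in 2, where 14.9% and 20.8% of all gene models had those patterns. In a fit of these 6 libraries alone 5 of the 7 members were called, 3 higher and 2 lower, where 10.2% of all gene models were called higher and 9.22% lower.

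Gbp models were called higher with LPS in both knockdown and control cells. In shIrf3_LPS against shIrf3, 4 members rose, all of them in the Gbp window, and 0 fell, where 4.17% of the 14970 gene models tested were called higher and 3.84% lower. In shLuc_LPS against shLuc, 3 members rose, again all in the Gbp window, and 0 fell, where 4.27% were called higher and 4.45% lower. Over the 7, the log2 fold change had a median of 1.09 in the knockdown cells and 0.64 in the control cells, where over all gene models tested it was 0.0026 in the knockdown cells and -0.0090 in the control cells. The libraries with and without LPS did not overlap in 6 members of the knockdown cells and in 4 of the control cells, always with LPS higher, against 13% and 9.99% of all gene models. In no member were all LPS libraries lower, against 26.7% of all gene models in the knockdown cells and 11.5% in the control cells.

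uc008roq.1 had the smallest adjusted p of the 7 in both. It had 4.01, 4.05 and 4.14 CPM in shIrf3_LPS and 1.16, 1.60 and 1.25 CPM in shIrf3 (log2 fold change 1.64, SE 0.20, edgeR adjusted p = 4.41e-05). In the control cells it had 3.45, 3.80 and 3.54 CPM in shLuc_LPS and 1.74, 1.06 and 2.03 CPM in shLuc (log2 fold change 1.16, SE 0.19, edgeR adjusted p = 0.000784). The 6 LPS libraries of this gene model lay close together, and it was called in all 22 alternatives of each comparison. Reads that its exons share with uc008rox.1 make the level of either uncertain.

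uc008roy.1 rose in knockdown and control cells as well. It had 112, 124 and 130 CPM in shIrf3_LPS and 50.5, 67.4 and 59.0 CPM in shIrf3 (log2 fold change 1.09, SE 0.20, edgeR adjusted p = 0.00806), and this call held in all 22 alternatives, from 1.0 to 1.19. In the control cells it had 131, 157 and 166 CPM in shLuc_LPS and 60.5, 116 and 76.1 CPM in shLuc (log2 fold change 0.86, SE 0.20, edgeR adjusted p = 0.0243). Here shLuc replicate 2 was close to the LPS libraries. The call in the control cells was lost without shLuc_LPS replicate 2, shLuc_LPS replicate 3 or shLuc replicate 3, and the log2 fold change lay between 0.68 and 1.13 over the libraries left out.

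The remaining Gbp calls depended on single libraries or rested on few reads. uc008ros.1 had 62.5, 62.0 and 68.0 CPM in shIrf3_LPS and 34.1, 50.2 and 36.8 CPM in shIrf3 (log2 fold change 0.71, SE 0.19, edgeR adjusted p = 0.0450). Of the 12 runs with a library left out, the call was kept in the 3 without shIrf3 replicate 2, shLuc replicate 1 or shLuc replicate 2 and lost in the others, with log2 fold changes from 0.61 to 0.90. In the control cells uc008ros.1 had 73.9, 72.1 and 76.1 CPM in shLuc_LPS and 36.2, 64.4 and 42.4 CPM in shLuc (log2 fold change 0.64, edgeR adjusted p = 0.0623), and it was called by DESeq2, by limma-voom, with library totals, with a filter of 1 CPM, with a replicate block, and without shLuc replicate 2 or shIrf3 replicate 2.

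uc008rox.1 was called on a handful of reads. It had 11, 6 and 10 counts in shIrf3_LPS and 0, 3 and 2 counts in shIrf3 (log2 fold change 2.36, SE 0.61, edgeR adjusted p = 0.0243). The call was lost without replicate 1 or replicate 3 of either group, and the log2 fold change lay between 1.88 and 2.94 over all libraries left out. In the control cells it had 7, 15 and 12 counts in shLuc_LPS and 4, 2 and 3 counts in shLuc (log2 fold change 1.78, SE 0.52, edgeR adjusted p = 0.0425). That call was kept in 3 of the 12 runs, those without shIrf3_LPS replicate 2, shLuc_LPS replicate 1 or shIrf3 replicate 1, with log2 fold changes from 1.54 to 2.0 over all 12. It was also lost with DESeq2, limma-voom, no low-count filter, the replicate block and all 18 libraries in a single fit.

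uc008rov.1 and both Mx models did not pass edgeR's test with LPS. In shIrf3_LPS against shIrf3, DESeq2 called 5 members, with uc008rov.1 added, and limma-voom called 6, with uc008rov.1 and uc012ajb.1 added. Of all gene models, DESeq2 called 4.54% higher and limma-voom 4.02%. uc008rov.1 had 75.7, 74.7 and 81.6 CPM in shIrf3_LPS and 34.5, 57.9 and 36.7 CPM in shIrf3 (log2 fold change 0.89, edgeR adjusted p = 0.0926). uc012ajb.1 had 12.5, 13.2 and 16.4 CPM in shIrf3_LPS and 2.32, 11 and 3.25 CPM in shIrf3 (log2 fold change 1.36, SE 0.55, edgeR adjusted p = 0.191). In both, shIrf3 replicate 2 was the library without LPS that came nearest to those with it. Without it, all 7 members were called higher in shIrf3_LPS, against 3.03% of all gene models, and the log2 fold change of uc012ajb.1 was 2.36. In the control cells uc008rov.1 had 60.3, 52.7 and 64.8 CPM in shLuc_LPS and 32.7, 60.8 and 28.2 CPM in shLuc (log2 fold change 0.56, edgeR adjusted p = 0.308), and it was called, at 0.94, without shLuc replicate 2. uc012ajb.1 had 8.79, 9.08 and 12.6 CPM in shLuc_LPS and 3.88, 11.9 and 5.75 CPM in shLuc (log2 fold change 0.51, edgeR adjusted p = 0.686). uc008adg.1 had 4.44, 5.11 and 5.08 CPM in shIrf3_LPS and 2.78, 5.04 and 2.53 CPM in shIrf3 (log2 fold change 0.53, edgeR adjusted p = 0.123). In the control cells it had 3.35, 2.95 and 2.86 CPM in shLuc_LPS and 3.32, 3.33 and 3.54 CPM in shLuc (log2 fold change -0.15, edgeR adjusted p = 0.771), the single negative value among the LPS comparisons.

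The difference between the LPS responses of knockdown and control cells was tested as an interaction. 0 of the 7 members and 0 of the 14970 gene models were called by edgeR (0% higher, 0% lower), and DESeq2 and limma-voom called 0 of the 7. DESeq2 called 0.0601% of all gene models higher and 0.02% lower. At an unadjusted p under 0.05 there was 1 member, uc008adg.1, with a log2 difference of 0.67 and a standard error of 0.29 (edgeR adjusted p = 0.822). The share of all gene models under that unadjusted p was not counted. The other log2 differences lay between 0.07 and 0.84, with standard errors from 0.26 to 0.86, so a difference of that size was not detectable with these libraries.

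**Figure D3:**
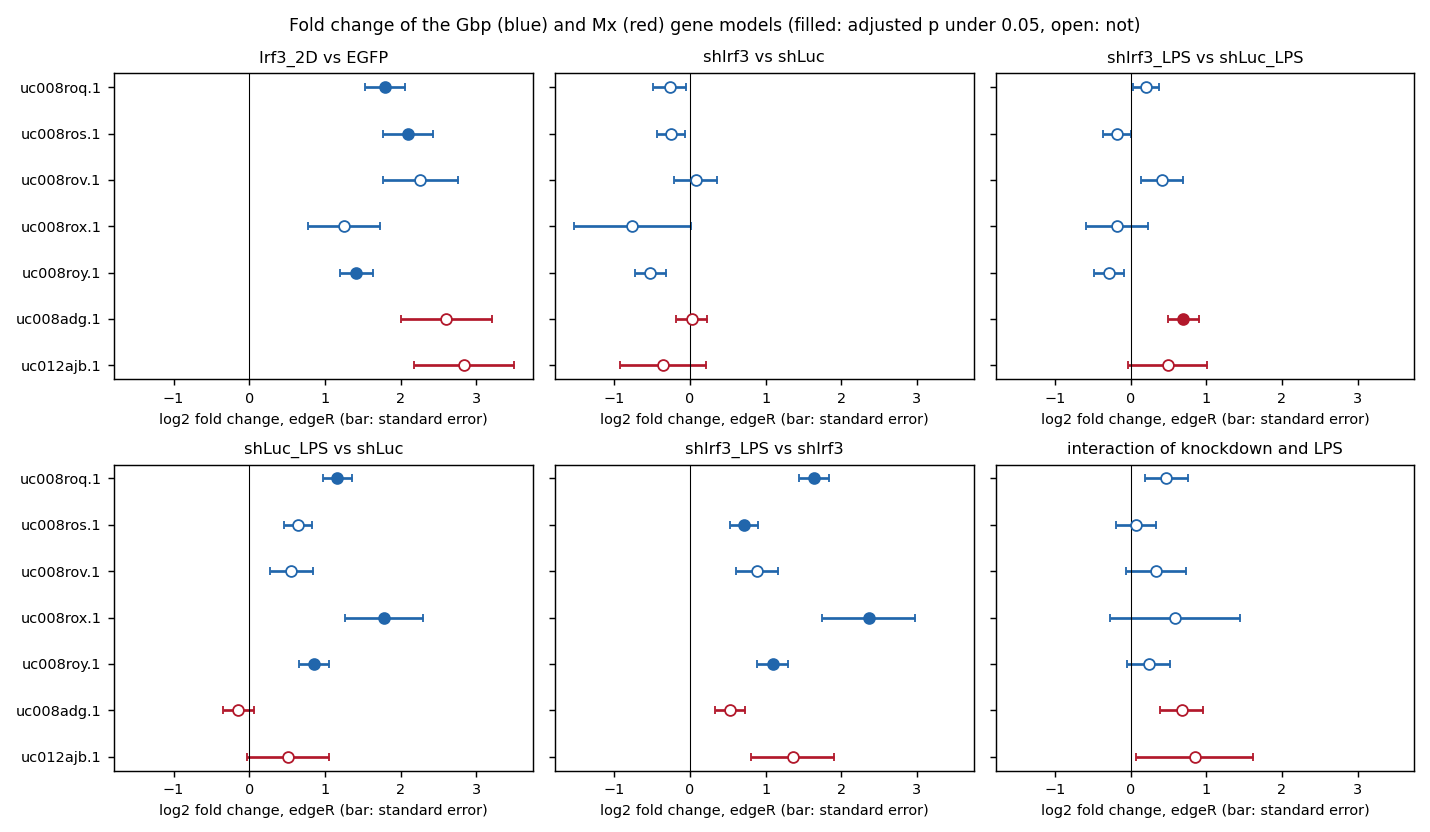
Log2 fold change of each member in the 5 comparisons and the interaction, from edgeR, with bars for the standard error, Gbp models in blue and Mx models in red. Filled points are called, 3 of 7 for Irf3_2D against EGFP and 0 of 7 for shIrf3 against shLuc.

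Scaled to exon length, uc008roy.1, uc008rov.1 and uc008ros.1 carried nearly all of the counted Gbp level in every group. The levels of the other Gbp models, uc008roq.1 and uc008rox.1, are uncertain because they share exon bases. The summed Gbp level was 379.5 ± 50.5 CPM per kb in Irf3_2D and 108 ± 49.5 CPM per kb in EGFP (SD, n = 3 each). It was 89.0 ± 5.20 in shIrf3_LPS, 96.5 ± 8.14 in shLuc_LPS, 46.6 ± 9.37 in shIrf3 and 57.3 ± 20.1 CPM per kb in shLuc. The summed Mx level was 68.5 ± 12.4 CPM per kb in Irf3_2D and 9.79 ± 10.2 in EGFP, and it averaged 7.30 in shIrf3_LPS, 5.14 in shLuc_LPS, 3.35 in shIrf3 and 4.02 CPM per kb in shLuc. In Irf3_2D, uc008roy.1 (170 CPM per kb) ranked 352nd and uc008rov.1 (158 CPM per kb) 383rd of 13892 gene models tested in both fits. In EGFP they ranked 1065th and 2065th. uc012ajb.1 ranked 1155th in Irf3_2D and 5915th in EGFP.

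The makeup of the Gbp level is given as the share of each gene model in the summed CPM per kb. uc008rov.1 made up 41.9% ± 2.50 of the summed Gbp level in Irf3_2D and 27.2% ± 10.5 in EGFP (SD, n = 3 each), and its libraries ranged from 39.0% to 43.6% in Irf3_2D, against 18.7% to 38.9% in EGFP. uc008rov.1 also made up more in the knockdown cells, 30.4% ± 0.972 in shIrf3_LPS and 21.5% ± 2.33 in shLuc_LPS, and 31.9% ± 3.20 in shIrf3 and 24.4% ± 3.68 in shLuc, without overlap of the libraries in either pair. uc008roy.1 made up 44.4% ± 5.25 in Irf3_2D and 62.0% ± 11.2 in EGFP, where the libraries overlapped through EGFP replicate 1 (49.3%). These shares were not tested. In the Mx windows, uc012ajb.1 made up 87.1% ± 1.29 in Irf3_2D and 85.01% ± 0.185 in EGFP, 79.2% in shIrf3_LPS, 81.2% in shLuc_LPS, 63.4% ± 10.9 in shIrf3 and 70.7% ± 11.01 in shLuc.

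**Figure D4:**
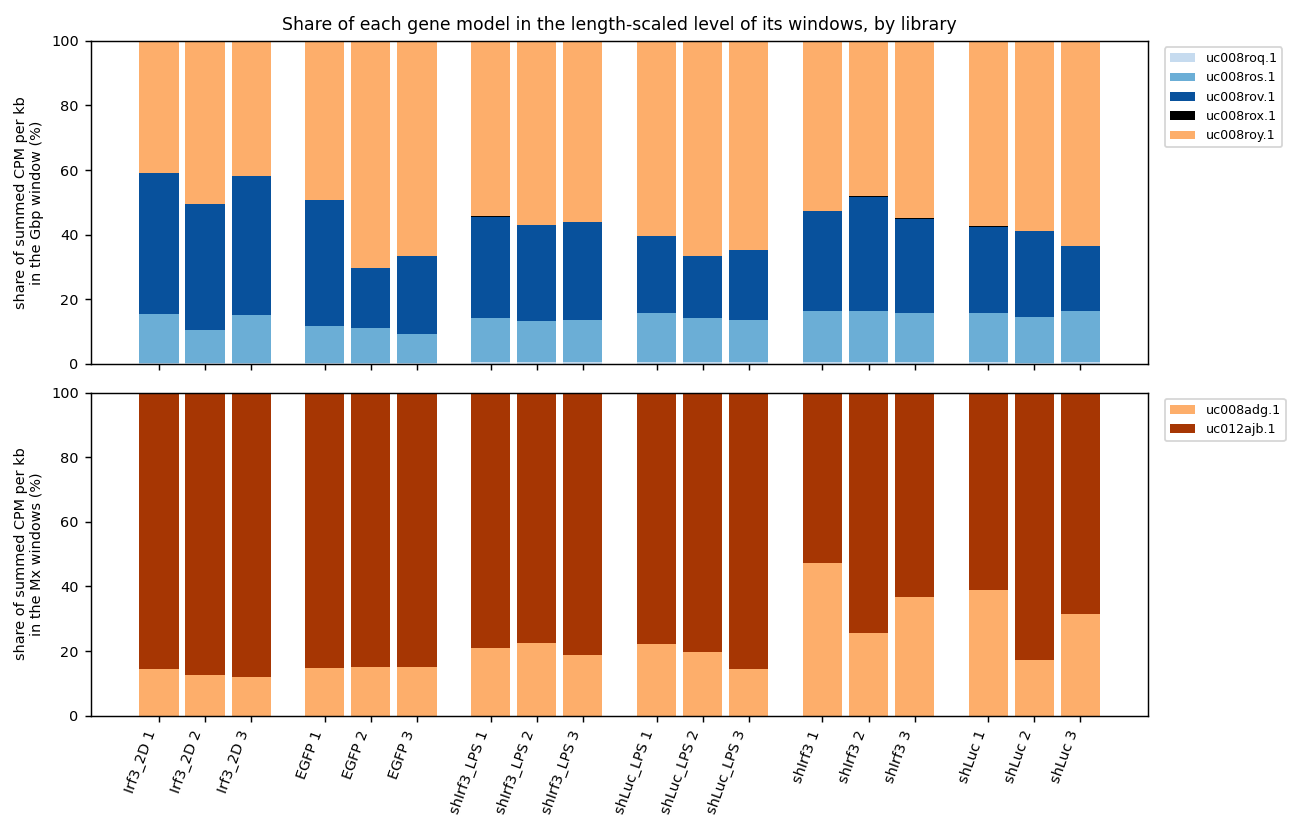
Share of each gene model in the summed CPM per kb of the Gbp window (top) and of the Mx windows (bottom), in percent, by library. uc008rov.1 makes up 39.0% to 43.6% of the Gbp level in Irf3_2D, against 18.7% to 38.9% in EGFP. The mean share of uc012ajb.1 is lowest in shIrf3 and shLuc, but its shLuc libraries (61.0% to 82.7%) overlap those of shLuc_LPS (77.8% to 85.5%).

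Ordered by mean CPM over all 6 groups, Irf3_2D came first for all 7 members, and none of its libraries overlapped the next group. The share of all gene models with that place for Irf3_2D was not counted, so the order is a description only. Below it, most neighbours in the order overlapped. The exceptions were uc008roq.1, with shIrf3_LPS above shLuc_LPS and shLuc_LPS above shLuc, uc008rov.1, with shIrf3_LPS above shLuc_LPS, and uc008roy.1, with shLuc_LPS above shIrf3_LPS. For uc008rov.1, uc008roy.1 and uc012ajb.1 the next group was EGFP, with replicate 1 as its highest library. For uc008ros.1 and uc008rox.1 the next group was shLuc_LPS, and for uc008adg.1 it was shIrf3_LPS. The overexpression and knockdown arms have different vectors, so this order sets levels side by side and compares no treatment across arms.

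The gene models around the windows gave a local background. Within 500 kb of the Gbp window, 5 further gene models were tested and 0 were called by edgeR in any comparison, with log2 fold changes from -0.09 to 0.36 in Irf3_2D against EGFP. Around the Mx windows 6 were tested and 1 was called higher in Irf3_2D. This gene model, uc008adl.1 (chr16:97786289-97832802, mm9), lies just past the second Mx window, and it was singled out after its values were seen. It averaged 4.16 ± 0.67 CPM in Irf3_2D and 0.66 ± 0.60 CPM in EGFP (SD, n = 3 each), and its log2 fold change was 2.62 (SE 0.51, edgeR adjusted p = 0.0438). In shIrf3_LPS against shLuc_LPS, uc008ads.2 (chr16:98076816-98144243, mm9), also named after its values were seen, was called lower at -0.26 (SE 0.06, edgeR adjusted p = 0.0171). No other neighbour was called.

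The gene models with the profile most like that of the leading members were named by the root mean square difference between their 6 centred group means of log2 CPM, over 12560 candidates. Closest to uc008roy.1 was uc008ylc.2 (chr5:105752045-105775491, mm9), at 0.11 log2 units, with 95.3 ± 27.3 CPM in Irf3_2D and 40.2 ± 6.36 CPM in EGFP. Next was uc012apv.1 (chr17:34335140-34338399, mm9), at 0.14. Closest to uc012ajb.1 were uc009dog.2 (chr6:121195924-121220935, mm9), at 0.17, and uc007ytw.2 (chr16:23610005-23614308, mm9), at 0.21. uc009dog.2 averaged 247 ± 63.7 CPM in Irf3_2D and 26.2 ± 24.0 CPM in EGFP, and uc012ajb.1 likewise had an EGFP SD close to its mean, 20.2 ± 21.1 CPM. The closest candidates were picked for the smallest distance and the members were not, so a smaller distance of those candidates is no result about the members. For uc008roy.1, the number of candidates closer than each member is given. The nearest other member to uc008roy.1 was uc008ros.1, at 0.28, with 14 of the 12560 candidates closer. uc008rov.1 was 0.49 from uc008roy.1, with 70 candidates closer, and uc008roq.1 was 0.62 from it, with 243 closer. The sparse uc008rox.1 was 0.32 from uc008roy.1, with 20 closer. Both Mx models were farther from uc008roy.1, uc008adg.1 at 0.64 with 416 closer and uc012ajb.1 at 0.80 with 3853 closer. uc008rov.1 was nearer to the Mx model uc012ajb.1, at 0.46, than the other Mx model was, at 0.66. These are descriptions over 6 group means of the same 18 libraries.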

How the data were processed

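RNA-seq was done on 18 libraries of 3T3-L1 adipocytes, made with a TruSeq kit after ribosomal RNA removal, per the labels' protocols. The deposited values are raw counts per gene model on mm9. The submitters' processing notes name TopHat2 2.0.14, featureCounts 1.4.6 and edgeR, with no role or settings, and strand use is not given in the sources used here. Members and lists were chosen with earlier results of these data known. Every member is named in the text, and gene models of like profile were those with the smallest root mean square difference, with at least 1 CPM on average. From the counts, edgeR 4.0.16 (quasi-likelihood test, TMM, filterByExpr, Benjamini-Hochberg adjustment) was fitted to 6 overexpression libraries (13931 gene models) and to 12 knockdown and LPS libraries (14970). Alternatives were DESeq2 1.42.0, limma-voom 3.58.1, other scalings and filters, a replicate block, other sets of libraries and each library left out. Replicates were numbered by the labels. Intervals for counting error are not given, since n is 3 libraries per group. Lists that need gene symbols were not used.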

Additional observations from a re-analysis of the deposited data

How the results depend on the processing

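Of 859 values of members under an alternative, 755 kept their direction and their side of the threshold, 55 lost a call, 35 gained one and 14 changed sign, none of them a value that had been called. Most of the 859 were not called in the main fit, and only values called there could lose a call. The 755 therefore do not measure how stable the calls were. For Irf3_2D against EGFP, DESeq2, limma-voom and all 18 libraries in a single fit each called 6 of 7, and leaving out a library gave 0 to 6. Of all gene models these fits called 1.69%, 1.11% and 3.08% higher, and 0% to 3.32% with a library left out. For shIrf3_LPS against shLuc_LPS the count was 0 with library totals or all 18 libraries, 5 with only the 6 libraries compared, and 0 to 1 with a library left out. With library totals, 3.28% of all gene models were called higher and 2.04% lower, and with all 18 libraries 1.36% and 1.15%. With only the 6 libraries compared they were 10.2% and 9.22%. With a library left out, 2.15% to 8.76% were called higher and 1.3% to 6% lower. For shLuc_LPS against shLuc the count was 1 without the low-count filter or with only the 6 libraries compared, where 2.87% and 2.51% of all gene models were called higher. With a library left out it was 1 to 4, where 2.9% to 6.47% of all gene models were called higher. For shIrf3_LPS against shIrf3 it was 2 to 7 with a library left out, where 2.51% to 7.18% were called higher. For shIrf3 against shLuc it was 0 to 1 with a library left out, where 1.86% to 10.7% were called higher and 1.48% to 7.38% lower. Same-numbered deviations correlated at 0.296, -0.0669 and -0.256 in the overexpression arm and at most at 0.0921 in the others. Such correlations over 3 libraries per group cannot settle whether replicate numbers pair the libraries. With the replicate block, 5 members were called for Irf3_2D against EGFP, where 1% of all gene models were called higher. For shIrf3 against shLuc the block gave 1 member called lower, uc008roy.1, where 4.22% of all gene models were called lower. The log2 fold change of uc008adg.1 in that last comparison was -0.000804 with the block, or -0.030 by limma-voom. With a library left out, the log2 fold change in shIrf3 against shLuc ran from -0.37 to 0.20 for uc008adg.1, from -0.20 to 0.48 for uc008rov.1, from -0.44 to 0.016 for uc008ros.1 and from -1.36 to 0.22 for uc012ajb.1. In shIrf3_LPS against shLuc_LPS it ran from -0.40 to 0.030 for uc008rox.1. The interaction ran from -0.18 to 0.25 for uc008ros.1, from -0.052 to 0.60 for uc008rov.1 and from -0.038 to 0.41 for uc008roy.1. The cause of these changes was not tested. With a group of 2 libraries left, the spread is estimated over all groups of the fit.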
